A study of Mus musculus with 28 samples.

Results

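The genes described here are 10 members of the purinergic system, the receptors, channel and enzymes through which cells release, sense and break down extracellular ATP, in motor cortex of mice at rest and after running on a rotarod. They were chosen by symbol: P2ry12, P2ry13, P2ry6, P2rx4, P2rx7, Entpd1, Nt5e, Adora1, Adora3 and Panx1. All 10 were found among the 24391 gene symbols of the count table. The measurements were RNA-seq read counts from 14 mice of genotype Cx3CR1-Cre/TRAPfl, in which the Cx3cr1 promoter drives the Cre recombinase that switches on a ribosome tag. In brain tissue the cells with an active Cx3cr1 promoter are mainly microglia, with border-associated macrophages among them. In TRAP, translating ribosome affinity purification, tagged ribosomes are pulled from the lysate with the mRNA they carry. Each mouse gave a TRAP library and a library of the total lysate, that is of the whole tissue. The groups were run TRAP and home cage TRAP, run total lysate and home cage total lysate, with 7 mice each. Run mice spent 1 h on the rotarod before tissue was taken, and home cage mice stayed in their cage as the baseline. Each condition held 3 mice of cohort 2 and 4 of cohort 1, a batch number given in the labels. All mice carried the Cre and the tag, and their age was not given in the sources used here. The design addresses which mRNAs on microglial ribosomes and in the whole tissue differ after motor exercise.

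ATP that leaves a cell, for example through the pannexin channel, opens ATP-gated P2X channels on neighbouring cells. Ectoenzymes on the cell surface then trim it stepwise: CD39, the product of Entpd1, removes phosphates from ATP and ADP, and CD73, the product of Nt5e, turns the resulting AMP into adenosine. ADP and UDP act on G protein-coupled P2Y receptors, and adenosine acts on its own family of G protein-coupled receptors. Microglia are known for dense expression of ADP-sensing P2Y receptors, which steer their processes toward sites of ATP release. Adenosine acting on the A1 receptor, the product of Adora1, dampens transmitter release from neurons.

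Each of the 14 TRAP libraries held 104405588 to 241381845 counts, and each of the 14 lysate libraries 70090518 to 179477632. The labels give microglia as the cell type of every library. The summed level of 7 microglia markers (Cx3cr1, Tmem119, Csf1r, Sall1, Siglech, C1qa, Fcrls) was 8495 to 29389 CPM in the 14 TRAP libraries, against 114 to 263 CPM in the 14 lysate libraries. CPM here are counts scaled to library size, with TMM factors computed on all 28 libraries together. The sum of 5 pan-neuronal markers was 1620 to 7873 CPM in TRAP and 7080 to 16175 CPM in lysate. Of 5 markers of border-associated macrophages, 5 were called higher in TRAP (median log2 fold change 6.24), as were 5 of 5 endothelial markers (2.17). Called lower were 3 of 4 astrocyte, 4 of 4 oligodendrocyte, 1 of 2 oligodendrocyte precursor and 5 of 5 striatal markers. Of all genes 33.8% were called higher and 40.1% lower. The part of macrophages and endothelial cells in the TRAP levels was not tested. The summed Y-linked level went against the labelled sex in 4 of 28 libraries. They came from 2 run mice, Male1 and Female2 of cohort 2, each with its TRAP and its lysate library. Values without these 2 mice are given for some of the run and fraction results. Comparisons between the cohorts and the effects in cohort 2 alone were not refitted without them.

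The start regions of the genes are described next, and a link between them and the TRAP levels was not tested. Windows of 250 bases before and 50 bases after the transcription start were available in RefSeq (build GRCm38.p6) for 9 of the 10 genes, 12 windows in all. GAGGAAG, a purine-rich core recognised by the myeloid transcription factor PU.1, was searched on both strands. It was found in 4 of the 12 windows, against 13.6% of 32851 windows of all genes. The matches lay in P2ry13, Adora3 and the second listed start of Entpd1 and of P2rx7. The P2ry12 window held none. The sequences below run 5′ to 3′ on the strand of the gene, with matches to the motif or its reverse complement in capitals. They show 4 genes that were higher in TRAP and, last, the second listed start of Adora1, a gene that was lower. Of the windows not printed, the second listed start of P2rx7 held a match. The windows of P2rx4, Panx1 and Nt5e and the first listed starts of P2rx7, Entpd1 and Adora1 held none.
P2ry13, chr3:59210833-59211132, minus strand: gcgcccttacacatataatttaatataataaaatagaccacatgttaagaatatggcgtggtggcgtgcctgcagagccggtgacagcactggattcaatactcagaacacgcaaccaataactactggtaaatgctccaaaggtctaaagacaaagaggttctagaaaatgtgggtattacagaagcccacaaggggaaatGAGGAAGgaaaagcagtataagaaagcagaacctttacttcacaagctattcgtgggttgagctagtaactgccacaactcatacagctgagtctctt
P2ry12, chr3:59262936-59263235, minus strand: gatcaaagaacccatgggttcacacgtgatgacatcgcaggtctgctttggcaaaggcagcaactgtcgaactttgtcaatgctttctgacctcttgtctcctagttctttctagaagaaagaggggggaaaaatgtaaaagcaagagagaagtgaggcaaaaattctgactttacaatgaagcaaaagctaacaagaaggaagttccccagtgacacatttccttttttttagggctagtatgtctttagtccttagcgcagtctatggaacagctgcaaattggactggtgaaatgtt
Entpd1 second start, chr19:40659520-40659819, plus strand: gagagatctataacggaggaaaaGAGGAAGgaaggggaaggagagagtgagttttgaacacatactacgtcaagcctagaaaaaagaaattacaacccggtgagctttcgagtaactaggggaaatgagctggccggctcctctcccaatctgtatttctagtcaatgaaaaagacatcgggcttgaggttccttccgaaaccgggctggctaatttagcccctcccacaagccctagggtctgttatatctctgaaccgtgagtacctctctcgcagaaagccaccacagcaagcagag
Adora3, chr3:105904171-105904470, plus strand: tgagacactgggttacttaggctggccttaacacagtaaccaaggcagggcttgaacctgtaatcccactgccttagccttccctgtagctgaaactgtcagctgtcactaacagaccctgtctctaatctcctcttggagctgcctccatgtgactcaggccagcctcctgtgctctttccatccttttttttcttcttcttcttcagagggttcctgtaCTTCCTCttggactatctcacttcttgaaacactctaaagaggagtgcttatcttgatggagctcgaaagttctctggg
Adora1, chr1:134234807-134235106, minus strand: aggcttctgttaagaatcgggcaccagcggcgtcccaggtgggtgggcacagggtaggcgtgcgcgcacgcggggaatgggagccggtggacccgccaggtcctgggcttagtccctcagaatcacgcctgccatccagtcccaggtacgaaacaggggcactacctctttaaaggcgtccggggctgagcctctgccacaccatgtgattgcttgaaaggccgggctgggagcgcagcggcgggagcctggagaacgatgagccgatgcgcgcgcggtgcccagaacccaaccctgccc
GC content was 42.3% in both P2Y windows, 48.7% in the Entpd1 window, 48.3% in Adora3 and 66.0% in Adora1. A match is a string of letters and no evidence of binding.

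TRAP against total lysate divided the genes. The ADP and UDP receptors, P2rx7, the ATP-degrading enzyme Entpd1 and the adenosine receptor Adora3 were higher in TRAP by log2 fold changes of 4.72 to 6.23. P2rx4 was higher by 1.92 and Panx1 by 0.39, while Adora1 and Nt5e, the A1 receptor and the adenosine-forming enzyme, were lower. All 10 genes were called at an adjusted p under 0.05 (8 higher, 2 lower; edgeR quasi-likelihood F test, Benjamini-Hochberg over 16880 genes). Of all genes tested, 73.9% were called, 33.8% higher and 40.1% lower, so a share of calls near this level is not particular to the 10 genes. The median of the 10 log2 fold changes was 5.03, against -0.21 for all genes tested.

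**Figure D1:**
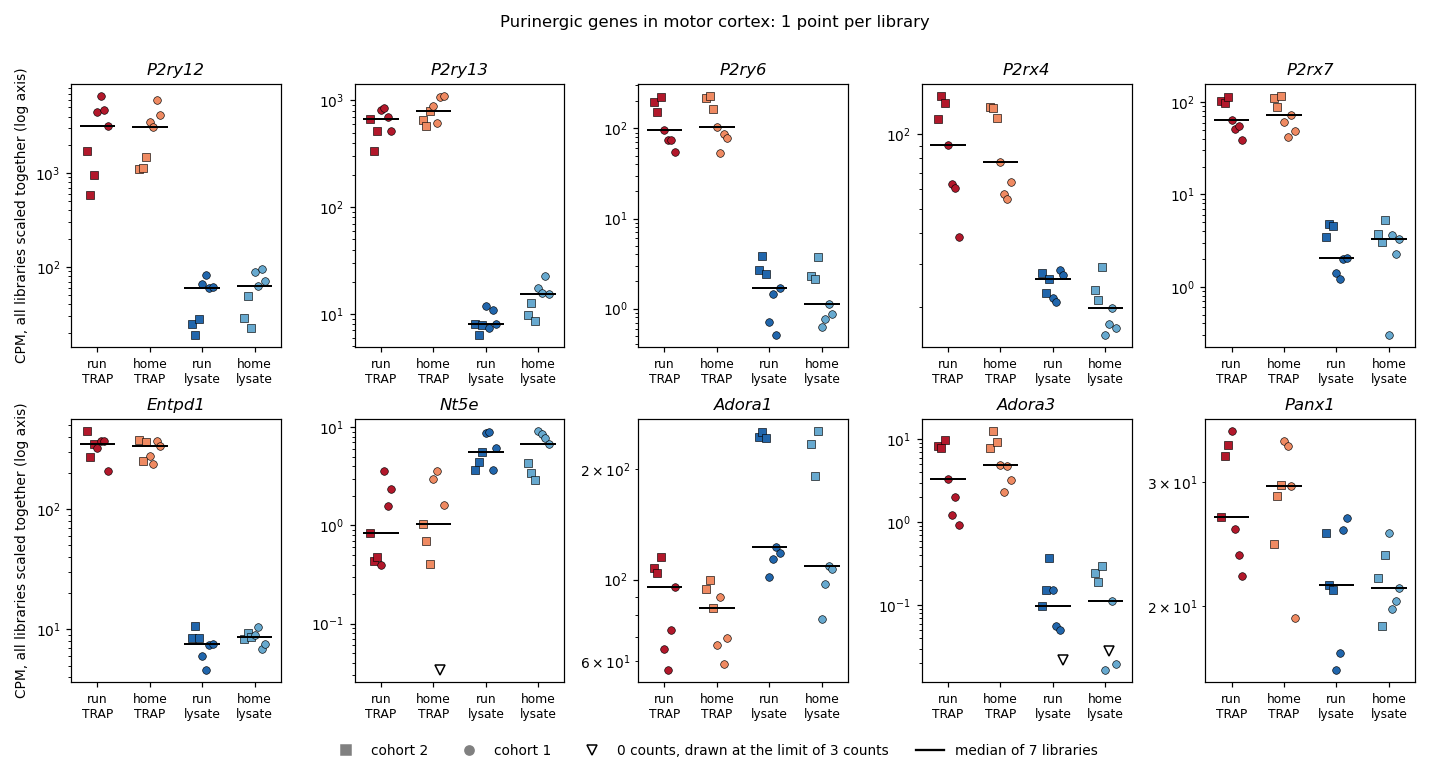
Level of each gene in every library, in CPM with all 28 libraries scaled together, on log axes that differ between panels. Squares are cohort 2, circles cohort 1, bars medians of 7 libraries, and open triangles libraries with 0 counts drawn at the limit of 3 counts. In 6 panels TRAP lies far above lysate, Nt5e and Adora1 show the opposite order, and run and home cage points intermix within a fraction in most panels.

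Among the P2Y receptors, P2ry12, the ADP receptor that guides microglial processes, had the most counts. Its levels (lowest, median and highest of 7 libraries) were 588, 3157 and 6624 CPM in run TRAP and 1102, 3087 and 6029 CPM in home cage TRAP, against 18.8, 59.6 and 81.8 CPM in run lysate and 22.4, 63.3 and 95.6 CPM in home cage lysate. TRAP and lysate did not overlap. The share of all genes with such a separation was not counted, here and for the genes below. The log2 fold change was 5.69 ± 0.19 (SE; adjusted p = 3.06e-22, edgeR). Within mice, the log2 ratio of TRAP to lysate ran from 4.54 to 6.34.

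P2ry13 encodes a related ADP receptor and lies beside P2ry12 on chromosome 3 (GRCm38 59207892 to 59210882, minus strand; P2ry12 59216272 to 59262871, minus strand). It had 333, 674 and 843 CPM in run TRAP and 574, 797 and 1101 CPM in home cage TRAP, against 6.31, 7.97 and 12.0 CPM in run lysate and 8.51, 15.5 and 22.9 CPM in home cage lysate. Every TRAP library was above every lysate library. The log2 fold change was 6.00 ± 0.14 (SE; adjusted p = 1.07e-25, edgeR). Both genes lie inside the span of Med12l, a Mediator subunit gene on the plus strand, whose exons share 9 bases with P2ry12. Med12l itself was at 2.83 to 9.05 CPM in TRAP and 2.91 to 6.14 CPM in lysate, with a log2 fold change of 0.02 ± 0.15 (SE; adjusted p = 0.927, edgeR).

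P2ry6, the UDP receptor linked to microglial phagocytosis, had the largest fold of the 10 genes at 6.23 ± 0.18 (SE, log2 scale; adjusted p = 1.41e-23, edgeR). It was at 54.8, 95.3 and 222 CPM in run TRAP and 53.7, 103 and 229 CPM in home cage TRAP, against 0.506, 1.67 and 3.85 CPM in run lysate and 0.629, 1.11 and 3.79 CPM in home cage lysate. The 95% interval of its log2 fold change, 5.86 to 6.60, overlapped that of P2ry13, 5.71 to 6.29, and of P2ry12, 5.31 to 6.07. Overlap of intervals is no test of a difference, and the folds come from the same mice. Differences in fold between the 3 receptors were not tested.

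The ATP-gated channels differed from each other. P2rx7, the low-affinity channel that couples high ATP to interleukin-1 release, had 39.1, 63.4 and 115 CPM in run TRAP and 41.8, 72.4 and 117 CPM in home cage TRAP, against 1.20, 2.03 and 4.79 CPM in run lysate and 0.298, 3.30 and 5.27 CPM in home cage lysate. Its log2 fold change was 4.72 ± 0.22 (SE; adjusted p = 3.22e-18, edgeR). P2rx4, which is more sensitive to ATP and is known from microglia after nerve injury, had 38.6, 90.3 and 143 CPM in run TRAP and 54.8, 76.9 and 129 CPM in home cage TRAP, against 21.1, 26.1 and 28.3 CPM in run lysate and 15.4, 19.8 and 29.1 CPM in home cage lysate. TRAP libraries were again all above lysate libraries for both channels, a separation whose share over all genes was not counted. The P2rx4 fold of 1.92 ± 0.12 (SE, log2 scale; adjusted p = 5.64e-15, edgeR) had a 95% interval of 1.68 to 2.17, below that of P2rx7 at 4.26 to 5.17.

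The enzymes fell on opposite sides. Entpd1 (CD39), which removes ATP and ADP, was at 209, 352 and 450 CPM in run TRAP and 241, 336 and 377 CPM in home cage TRAP, against 4.57, 7.55 and 10.7 CPM in run lysate and 6.83, 8.68 and 10.5 CPM in home cage lysate (log2 fold change 5.34 ± 0.13, SE; adjusted p = 1.73e-25, edgeR). Nt5e (CD73), which makes adenosine from AMP, was at 0.396, 0.845 and 3.61 CPM in run TRAP and 0, 1.03 and 3.62 CPM in home cage TRAP, against 3.66, 5.56 and 9.03 CPM in run lysate and 2.92, 6.69 and 9.18 CPM in home cage lysate. The home cage TRAP library Male1 of cohort 1 had 0 Nt5e counts, and 3 counts there would be 0.0336 CPM. Nt5e was lower in TRAP by a log2 fold change of -2.21 ± 0.39 (SE; adjusted p = 7.40e-06, edgeR). Its ratio was below 0 on the log2 scale in 13 of the 13 mice with counts in both libraries.

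The adenosine receptors also parted. Adora3, a Gi-coupled receptor, was scarce: 0.939, 3.33 and 9.69 CPM in run TRAP and 2.30, 4.86 and 12.6 CPM in home cage TRAP, against 0, 0.0989 and 0.372 CPM in run lysate and 0, 0.113 and 0.300 CPM in home cage lysate. A lysate library of each condition had no Adora3 count, and 3 counts there would be 0.0222 CPM in the run library and 0.0285 CPM in the home cage library. Its log2 fold change was 5.56 ± 0.41 (SE; adjusted p = 2.74e-13, edgeR). The annotation gives 20.9% of its exon bases also to Tmigd3 on the same strand, so the split of reads between the 2 genes is uncertain. Tmigd3 reached at most 1.14 CPM in TRAP and 0.488 CPM in lysate.

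Adora1 had 56.7, 95.8 and 115 CPM in run TRAP and 58.8, 83.6 and 99.99 CPM in home cage TRAP, against 102, 123 and 253 CPM in run lysate and 78.1, 109 and 254 CPM in home cage lysate. The log2 fold change was -0.85 ± 0.10 (SE; adjusted p = 9.91e-09, edgeR), and the ratio was below 0 in 14 of 14 mice. The fractions overlapped in CPM. In lysate it was at 191 to 254 CPM in cohort 2 and 78.1 to 123 CPM in cohort 1. Of its exon bases 20.1% also belong to Mybph on the opposite strand, which was at 0 to 1.85 CPM in TRAP and 0 to 0.232 CPM in lysate.

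Panx1, the pannexin channel that lets ATP out, was the least changed. It was at 22.1, 26.8 and 35.5 CPM in run TRAP and 19.3, 29.7 and 34.3 CPM in home cage TRAP, against 16.2, 21.4 and 26.7 CPM in run lysate and 18.8, 21.2 and 25.4 CPM in home cage lysate. The log2 fold change was 0.39 ± 0.10 (SE; adjusted p = 9.26e-04, edgeR), and the ratio was above 0 in 11 of 14 mice. When libraries were scaled by their total counts alone, the median of all genes moved to -0.72 and Panx1 to -0.12 (adjusted p = 0.257, edgeR), so its direction depended on the scaling. Relative to the median of all genes it was 0.60 with TMM and 0.59 with total counts. The 9 other genes kept their direction and their call under total counts.

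**Figure D2:**
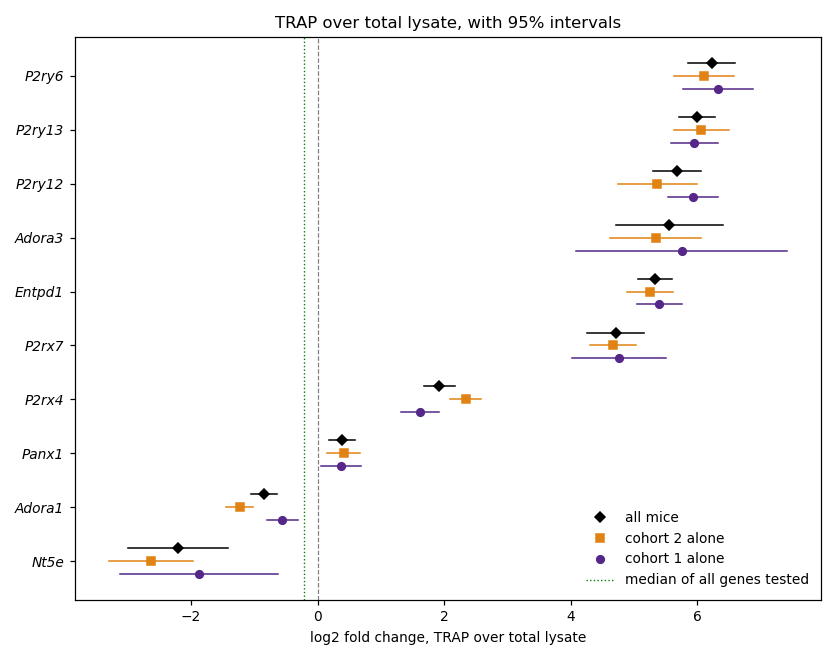
Log2 fold change of TRAP over total lysate for each gene, ordered by size, with 95% intervals. Diamonds use all mice (n = 14), squares cohort 2 alone, circles cohort 1 alone, and the dotted line is the median of all genes tested (-0.21). Of the 10 genes, 6 lie above 4, P2rx4 and Panx1 between 0 and 3, and Adora1 and Nt5e below 0. The cohort intervals are apart for P2rx4 and Adora1.

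The TRAP to lysate fold of each gene was also compared between the cohorts. The difference between cohorts was called for 2 of the 10 genes, where 19.7% of all genes were called. Of the 2, 1 lay in each direction, where 8.05% of 17092 genes were called higher in cohort 2 and 11.7% lower. P2rx4 had a log2 fold of 2.34 in cohort 2 and 1.62 in cohort 1, a difference of 0.72 ± 0.19 (SE; adjusted p = 0.00930, edgeR). Adora1 had -1.23 in cohort 2 and -0.56 in cohort 1, a difference of -0.68 ± 0.16 (SE; adjusted p = 0.00254, edgeR). Without the 2 mice of uncertain label, folds of the 10 genes over all mice remained called and ranged from -2.03 for Nt5e to 6.21 for P2ry6, with P2rx4 at 1.73 and Panx1 at 0.28.

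Levels per kilobase of exon allow the genes to be ranked within a fraction. In the 14 TRAP libraries the median level was 1226 CPM per kilobase for P2ry12, 270.1 for P2ry13, 61.6 for Entpd1 and 34.3 for P2ry6. Adora1 (15.0), P2rx4 (11.9) and P2rx7 (11.4) followed with ranges that overlapped, then Panx1 (4.84), Adora3 (1.29) and Nt5e (0.109). P2ry12 and P2ry13 overlapped in range as well, at 231 to 2602 and 132 to 435 CPM per kilobase. The only neighbours in this order whose ranges were apart were P2ry13 with Entpd1 and P2rx7 with Panx1. Adora1 and Nt5e were lower in TRAP than in lysate, and the sum of 5 pan-neuronal markers was still 1620 to 7873 CPM in run TRAP. The part of RNA from untagged cells in these TRAP levels was not tested. In total lysate the order was P2ry12 (23.6), Adora1 (20.8), P2ry13 (4.08), Panx1 (3.54), P2rx4 (3.19), Entpd1 (1.498), Nt5e (0.678), P2ry6 (0.542), P2rx7 (0.533) and Adora3 (0.0285). Ranges of neighbours in the lysate order overlapped in all but 2 pairs, Adora1 with P2ry13 and P2rx4 with Entpd1. They overlapped, for example, for P2ry12 and Adora1 (7.37 to 37.6 and 13.5 to 43.9) and for Panx1 and P2rx4 (2.69 to 4.42 and 2.20 to 4.15). The order also differed between the cohorts. In lysate Adora1 had the highest median in cohort 2, with 42.2 CPM per kilobase against 10.4 for P2ry12, while in cohort 1 it had 18.6 against 26.7 for P2ry12. In TRAP of cohort 2, P2ry6 (72.3) was above Entpd1 (63.9), and Adora1 (17.6) below P2rx4 (18.3) and P2rx7 (18.0). The length used mattered too. With the longest transcript in place of all exons P2rx4 was at 21.5 CPM per kilobase in TRAP, above Adora1 at 17.4, and at 5.75 in lysate, above P2ry13 at 4.08. Nt5e was then at 0.234 in TRAP and 1.46 in lysate, and Adora3 at 2.03 in TRAP.

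After 1 h of rotarod none of the 10 genes was called in TRAP. The edgeR quasi-likelihood test called 6 of 15644 genes (0.0384%), all higher. At an unadjusted p under 0.05 it found 2 of the 10, where 3.56% of all genes passed, and DESeq2 called none of the 10 either. P2ry13 was lower after the run by -0.39 ± 0.17 (SE, log2 scale; 95% interval -0.75 to -0.03; unadjusted p = 0.0372, adjusted p = 0.999, edgeR). Adora3 was lower by -0.67 ± 0.29 (SE; unadjusted p = 0.0314, adjusted p = 0.999, edgeR). With the 14 TRAP libraries scaled by themselves, 7 of 7 run libraries were below the home cage median of their cohort for P2ry13 and 6 of 7 for Adora3, but the ranges overlapped. In the CPM of all 28 libraries given above, the count for P2ry13 was 6 of 7, since a run library of cohort 2 was at 674 CPM against a home cage median of 660.4 CPM. None of the 10 genes had all 7 run TRAP libraries below every home cage library of their cohort, as 0.0639% of all genes did. Without the 2 mice of uncertain label, P2ry13 was at -0.26 and Adora3 at -0.79.

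For the other 8 genes the log2 difference in TRAP lay between -0.11 and 0.12. The 95% intervals were widest for Nt5e, at -1.71 to 1.49, and P2ry12, at -0.46 to 0.49. They were -0.42 to 0.22 for P2ry6, -0.27 to 0.33 for P2rx4, -0.36 to 0.23 for P2rx7, -0.26 to 0.42 for Entpd1, -0.14 to 0.39 for Adora1 and -0.31 to 0.32 for Panx1. P2ry12 was at 0.02 ± 0.23 (SE, log2 scale) over all mice, -0.20 in cohort 2 and 0.18 in cohort 1. Run libraries of cohort 2 spanned 588 to 1734 CPM, around the home cage range of 1102 to 1486 CPM, and the 2 mice of uncertain label held the 2 lowest values, 588 and 944 CPM. Without them the P2ry12 difference was 0.27 ± 0.19 (SE; adjusted p = 0.924, edgeR).

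In total lysate P2ry13 had the smallest p of the 10 genes and was lower after the run, without passing the edgeR threshold. In cohort 2 it was at 6.31, 7.95 and 7.97 CPM in run mice, against 8.51, 9.84 and 12.7 CPM in home cage mice. In cohort 1 it was at 7.45, 7.98, 10.8 and 12.0 CPM in run mice, against 15.5, 15.7, 17.3 and 22.9 CPM in home cage mice. Every run library was thus below every home cage library of its own cohort, a pattern that 0.0968% of 16522 genes shared. The difference was -0.72 ± 0.15 on the log2 scale (SE, n = 7 each; 95% interval -1.03 to -0.40), with an unadjusted p of 1.41e-04 and an adjusted p of 0.157 (edgeR). DESeq2 gave -0.72 with an adjusted p of 0.00558, so the call depended on the tool. It was -0.49 in cohort 2, -0.91 in cohort 1 and -0.75 without the 2 mice of uncertain label. In bulk tissue, fewer cells of a type and less RNA per cell cannot be told apart.

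The 7 microglia markers gave the following values beside P2ry13 in lysate. Their summed level was 216 to 263 CPM in run mice of cohort 2 against 201 to 251 CPM in home cage mice, and 114 to 152 CPM in run mice of cohort 1 against 114 to 152 CPM in home cage mice. None of the 7 markers was called by run in either fraction, and the lowest lysate p belonged to Sall1, a microglial transcription factor, at -0.38 ± 0.14 (SE, log2 scale; adjusted p = 0.629, edgeR). P2ry13 per 1000 CPM of marker sum was 25.6 to 36.8 CPM in run mice of cohort 2 against 33.9 to 63.5 CPM in home cage mice. In cohort 1 it was 54.3 to 78.6 CPM in run mice against 111 to 150.1 CPM in home cage mice. None of 5 endothelial markers (Pecam1, Cldn5, Flt1, Kdr, Tek) was called by run with edgeR, but their log2 difference was below 0 for 5 of 5 in each fraction. The median difference was -0.31 in lysate, with 1 marker at an unadjusted p under 0.05, and -0.23 in TRAP, with 2. Over all genes the median was 0.0015 in lysate and 0.0011 in TRAP, and 7.30% and 3.56% passed that p. Their summed level in lysate was 8.75 to 37.1 CPM in run mice and 9.96 to 46.3 CPM in home cage mice. For 5 markers of border-associated macrophages the median was 0.18 in lysate and 0.21 in TRAP, with none called. The part of either cell type in the P2ry13 values was not tested.

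**Figure D3:**
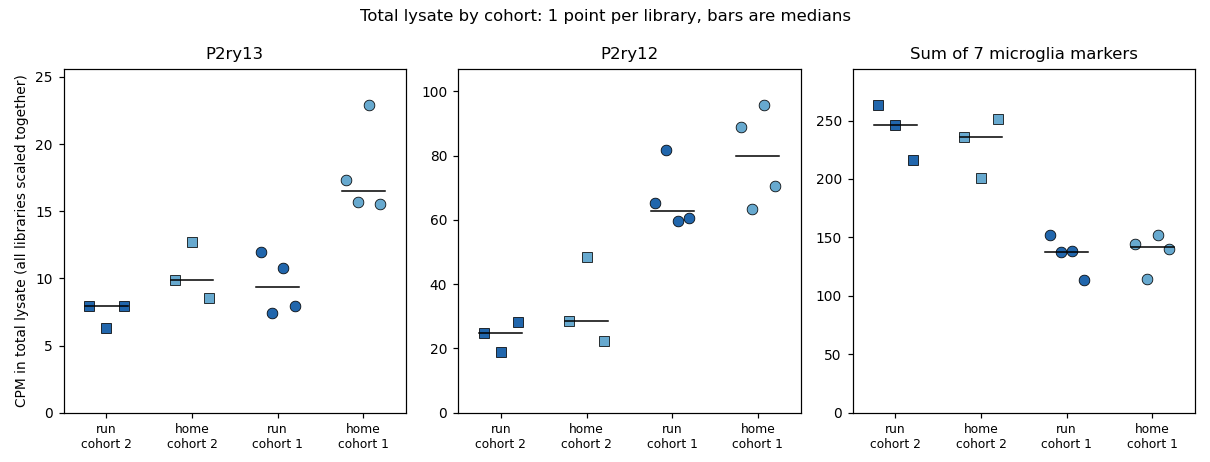
Levels in total lysate of P2ry13, of its neighbour P2ry12 and of the sum of 7 microglia markers, in CPM, by cohort, with 1 point per library and medians as bars. Run points of P2ry13 lie below the home cage points of their cohort, those of P2ry12 overlap, and the marker sums cover about the same range in run and home cage mice.

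Other genes in lysate differed less. No gene of the 10 was called by edgeR, where 5 of 16522 genes were called (0.0303%), all higher; 3 of the 10 had an unadjusted p under 0.05, where 7.30% of all genes did. The others besides P2ry13 were P2rx4, at 0.32 ± 0.12 (SE, log2 scale; unadjusted p = 0.0152, adjusted p = 0.620, edgeR), and P2ry12, at -0.34 ± 0.16 (SE; unadjusted p = 0.0408, adjusted p = 0.678, edgeR). Leaving out 1 library moved P2ry12 to between -0.41 and -0.19, the last without the home cage mouse Female2 of cohort 2. For P2rx4 all 4 run libraries of cohort 1 were above every home cage library of that cohort (21.1 to 28.3 CPM against 15.4 to 19.8 CPM), while in cohort 2 the ranges were 22.9 to 27.5 CPM against 21.4 to 29.1 CPM. Its within-cohort differences were 0.05 in cohort 2 and 0.51 in cohort 1, and the test of that difference gave an unadjusted p of 0.0554 and an adjusted p of 1.00 (edgeR). P2ry12 was at -0.48 in cohort 2 and -0.26 in cohort 1. Adora1 was at 0.19 ± 0.09 (SE; unadjusted p = 0.0512, adjusted p = 0.678, edgeR) and P2ry6 at 0.27 ± 0.28. Entpd1 (-0.20 ± 0.15), P2rx7 (-0.26 ± 0.35), Nt5e (0.03 ± 0.19), Panx1 (0.03 ± 0.12) and Adora3 (0.29 ± 0.87) had intervals that included 0.

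**Figure D4:**
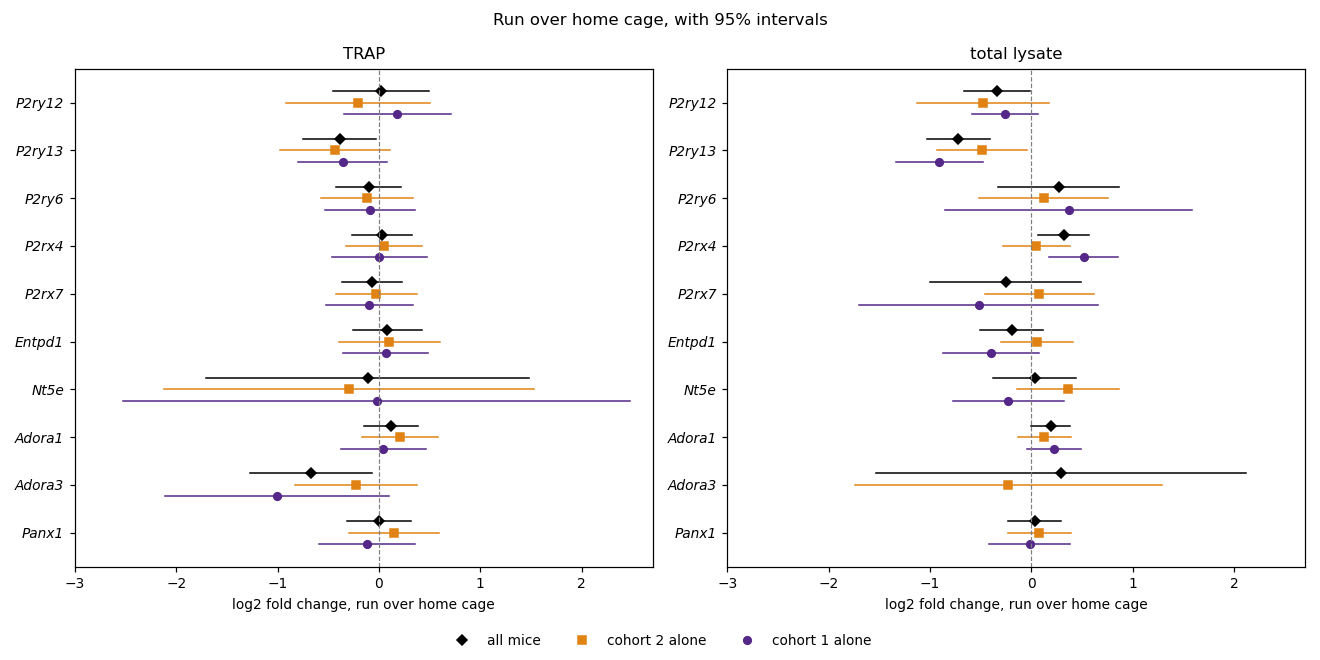
Log2 fold change of run over home cage for each gene in TRAP (left) and total lysate (right), with 95% intervals; diamonds use all mice (n = 7 each), squares cohort 2 alone and circles cohort 1 alone. The P2ry13 diamonds lie at -0.39 in TRAP and -0.72 in lysate, and most other intervals cross 0. Adora3 in lysate of cohort 1 had too few counts to be fitted.

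The run effect did not differ detectably between the fractions for any of the 10 genes. The interaction test in edgeR called 0 of 16880 genes (0%), none of the 10 had an unadjusted p under 0.05, and DESeq2 called none of the 10. For P2ry13 the TRAP effect minus the lysate effect was 0.34 ± 0.23 (SE, log2 scale; 95% interval -0.13 to 0.81). For P2ry12 it was 0.39 ± 0.30 and for Adora3 -0.86 ± 0.71. No gene of the 10 had a run effect that differed between cohorts in either fraction (edgeR, 0 of 16289 genes in TRAP and 0 of 17101 in lysate, 0% each, with none of the 10 at an unadjusted p under 0.05).

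Levels of 7 of the 10 genes differed between the cohorts in each fraction. The comparison was chosen after the values were seen and uses the cohort term of the same fits. It includes the 2 cohort 2 mice of uncertain label and was not refitted without them. Of all genes 63.3% were called by cohort in TRAP and 69.6% in lysate, so 7 of 10 is near the background. In TRAP the calls were 5 higher and 2 lower in cohort 2, where 32.7% of all genes were higher and 30.6% lower. In lysate they were 4 higher and 3 lower, where 35.6% of all genes were higher and 34.0% lower. P2ry12 was at 588, 1115 and 1734 CPM (lowest, median, highest) in the 6 TRAP libraries of cohort 2 and 3087, 4314 and 6624 CPM in the 8 of cohort 1, with a log2 fold change of -1.95 ± 0.24 (SE; adjusted p = 1.37e-06, edgeR). P2ry6 went the other way, with 153, 209 and 229 CPM in cohort 2 and 53.7, 76.8 and 103 CPM in cohort 1 (1.36 ± 0.15, SE; adjusted p = 4.57e-07, edgeR). For neither gene did the cohorts overlap, and the share of all genes with cohorts apart in this way was not counted.

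The same signs held in lysate for both receptors, with -1.39 ± 0.16 for P2ry12 and 1.56 ± 0.28 for P2ry6 (SE, log2 scale). Adora3 (1.80 in TRAP, 2.18 in lysate), P2rx7 (0.97, 1.04) and Adora1 (0.49, 1.14) were called higher in cohort 2 in both fractions and P2ry13 (-0.47, -0.59) lower in both. P2rx4 was called higher in TRAP (1.02), with 0.27 in lysate (adjusted p = 0.0542, edgeR), and Nt5e was called lower in lysate (-0.90), with -1.63 in TRAP (adjusted p = 0.0865, edgeR). Entpd1 (0.14, 0.27) and Panx1 (0.08, 0.01) were not called. The GC content of the longest transcript was 38.6% in P2ry12, 44.7% in P2ry13 and Entpd1, 48.0% in Nt5e, 48.3% in P2rx4, 49.0% in Adora3, 50.1% in P2rx7 and in Panx1, 54.2% in Adora1 and 55.9% in P2ry6, against a median of 48.6% over genes. Adora3, near that median, had the largest positive cohort fold of the 10 genes in both fractions, and P2rx7 and Panx1 had about the same GC content but different folds. Across genes, which are not independent replicates, GC content and the cohort fold correlated with a Spearman rho of 0.72 in TRAP (15064 genes) and 0.78 in lysate (15898 genes). The part of GC content in these cohort differences was not tested. The marker sum of microglia in TRAP was 25022 to 29389 CPM in cohort 2 and 8495 to 14561 CPM in cohort 1. The 7 markers did not all move together: in TRAP 5 were called higher in cohort 2 and 1 lower, where 32.7% and 30.6% of all genes were. Median Sall1 was 255 CPM in cohort 2 against 424 CPM in cohort 1, and median Siglech 1808 against 2181 CPM.

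**Figure D5:**
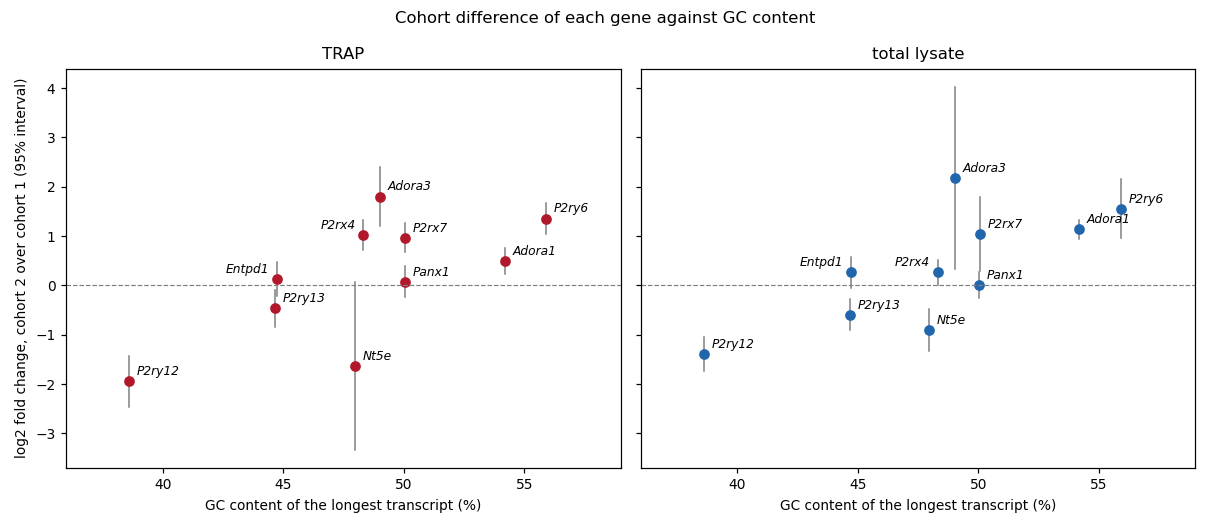
Log2 fold change of cohort 2 over cohort 1 for each gene in TRAP (left) and total lysate (right), with 95% intervals, against the GC content of its longest transcript in percent. P2ry12, with the lowest GC content (38.6%), lies at -1.95 and -1.39, and P2ry6, with the highest (55.9%), at 1.36 and 1.56.

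Beyond the 10 genes, 32 other genes of purine release, sensing, breakdown and transport were in the table. In TRAP against lysate 29 were tested. The test called 11 of them higher and 14 lower, where 33.8% of all genes were higher and 40.1% lower, and their median log2 fold change was -0.85. Those with the largest calls included P2rx1, an ATP-gated channel of blood cells and platelets, at 2.25 to 17.7 CPM in TRAP and 0 to 0.771 CPM in lysate (5.49 ± 0.42, SE; adjusted p = 6.21e-13, edgeR). Pnp, a purine nucleoside phosphorylase, was at 145 to 245 CPM in TRAP and 5.92 to 11.7 CPM in lysate (4.57 ± 0.10, SE). Reads of Pnp can be shared with its close paralog Pnp2, so its level is uncertain. P2ry10, a lysophosphatidylserine receptor of immune cells, was called higher at levels of at most 4.30 CPM. P2rx5, Acpp and P2rx2 had the largest lower calls, but reached at most 0.747 CPM in any library, and their fitted folds rest on libraries with 0 counts.

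Kcnk13, which encodes the THIK-1 potassium channel that works downstream of P2ry12 in microglia, was at 37.8 to 82.2 CPM in TRAP and 6.48 to 15.5 CPM in lysate (2.48 ± 0.13, SE, log2 scale; adjusted p = 2.27e-17, edgeR). P2ry14, a receptor for UDP-sugars, was higher by 1.53 ± 0.18. Adora2a, the adenosine receptor abundant in striatal neurons, was lower by -0.94 ± 0.20 (6.02 to 30.6 CPM in TRAP, 8.54 to 54.3 CPM in lysate). None of these 32 genes was called by run with edgeR. In TRAP 25 were tested, 1 with an unadjusted p under 0.05, and in lysate 28, of which 3 did. In TRAP Kcnk13 differed by -0.22 ± 0.14 between run and home cage mice.

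The genes whose TRAP levels followed P2ry12 most closely over the 14 libraries, with the mean of each cohort subtracted, were Pde3b, Lamp2 and Fam120a (Pearson r = 0.98 each, among 9215 candidates). For P2ry13 they were Arhgap29 and Evi2a (0.95 each) and Sall1 (0.94). For Entpd1 they were Itgam (0.94), Dennd4a and N4bp2l1 (0.91 each). In lysate Adora1 was followed by Hepacam, Mink1 and Sdc4 (0.91 each, among 9683 candidates). These are descriptions with no test, since all genes of a library share its depth and base composition. For P2ry12, 6.40% of candidates had an r above 0.8. Among the 10 genes in TRAP the closest were P2ry12 with Entpd1 (0.79) and with P2ry13 (0.78), and Adora1 ran opposite to P2rx7 (-0.70) and P2ry13 (-0.69).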

How the data were processed

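Poly(A) RNA of motor cortex was isolated with the RNeasy kit and libraries were made with Nextera XT, per the labels' protocols. The authors deposited read counts by gene symbol, unscaled whole numbers in a single table. The submitters' processing notes list STAR 2.7.7a, featureCounts, DESeq2 and GRCm38. Annotation, strand setting and handling of multi-mapping reads: not given in the sources used here. Columns without a cohort mark were taken as cohort 1, because their names match those titles, and 0 columns lay outside the series. Depth was 70090518 to 241381845 counts per library, and counts of 1 to 40 were even in 67.3% to 74.5% of genes. The limits of 3 counts for libraries with 0 counts cover counting error only. They treat each count as a separate read, which the excess of even counts puts in doubt, so they may be too low. Intervals of fold changes come from the edgeR fits across mice and include the spread between mice.

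Deposited counts entered quasi-likelihood F tests in edgeR 4.0.16 (TMM, filterByExpr, Benjamini-Hochberg over all genes, threshold 0.05), within each fraction with cohort as a covariate (14 libraries) or over all 28 libraries with 4 groups and cohort. The error (SE) is the size of the log2 fold change divided by the square root of F. The limit for a count of 0 is 3 counts per library. Scripts were tested on simulated data. Alternatives were other scaling factors, DESeq2 1.42.0, no filter, each mouse left out, each cohort alone, no cohort term, replicate blocks and leaving out 2 mice. Total counts without TMM were added after the data had been seen.

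Mice are separate animals, and the titles tie the TRAP and lysate library of a mouse. For each mouse the deviations of these libraries from their group and cohort mean were correlated. The values ran from -0.44 to 0.34 and passed 0.1 in 6 of 14 mice; the fit with a mouse block changed the call of none of the 10 genes. No library repeated another: within groups, chi-square divided by its degrees of freedom was at least 69.6. The genes and lists were chosen with earlier results of these data known, and 1 gene of the microglia list is not reported here. Named were the 10 genes in every comparison, the other purinergic genes called in a comparison (up to 3 in each direction by size) with Adora2a, Kcnk13 and P2ry14, genes sharing exon bases with the 10, and the 3 closest genes by correlation for P2ry12, P2ry13, Entpd1 and Adora1 (log2 CPM with a pseudocount of 0.5, mean of at least 3). Lengths, overlaps and GC content come from GENCODE on GRCm38, and promoter sequences from RefSeq.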

Additional observations from a re-analysis of the deposited data

Results flagged for a closer look

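P2rx7 in home cage lysate had a library far from the others: Female1 of cohort 1 was at 0.298 CPM, and the nearest of the other 6 libraries at 2.28 CPM. On log2(CPM + 0.5) the gap was 0.631 of the range of the group, above the critical value of Dixon's test for a group of 7; on CPM itself it was below that value. Of 40 groups of 7 libraries tested, 1 was flagged, and chance flags about 1 in 20.

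The TRAP to lysate fold differed between the cohorts for Adora1, by -0.68 (cohort 2 minus cohort 1, log2 scale), and for P2rx4, by 0.72 (edgeR interaction tests, adjusted p of 0.00254 and 0.00930). Adora1 in lysate was at 191 to 254 CPM in cohort 2 and 78.1 to 123 CPM in cohort 1, and in TRAP at 83.6 to 115 CPM in cohort 2 and 56.7 to 95.8 CPM in cohort 1. P2rx4 in TRAP was at 116 to 143 CPM in cohort 2 and 38.6 to 90.3 CPM in cohort 1, and in lysate at 21.4 to 29.1 CPM in cohort 2 and 15.4 to 28.3 CPM in cohort 1. Markers of neurons also had a lower TRAP to lysate fold in cohort 2, with 5 of 5 called and a median difference of -0.98. So did those of astrocytes (2 of 4 called, -0.75), oligodendrocytes (1 of 4, -0.53) and striatal neurons (1 of 5, -0.64). Of 7 microglia markers, 2 were called higher, with a median of 0.42. Of 2 oligodendrocyte precursor markers, 1 was called higher and 1 lower. No macrophage or endothelial marker was called. Of all genes 11.7% were called lower and 8.05% higher. The part of these cell types in the values of Adora1 and P2rx4 was not tested.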

How the results depend on the processing

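The 10 calls of TRAP against lysate held under every alternative run except total counts without TMM, which kept 9, with Panx1 at -0.12. That setting also moved the split of all calls to 3920 higher and 9568 lower, against 5697 and 6773. In lysate DESeq2 called 1 of the 10 genes by run, P2ry13, where edgeR called 0. Over all genes DESeq2 called 42 by run in TRAP and 40 in lysate, against 6 and 5 with edgeR, and 34 for the difference between fractions, against 0. Without the 2 mice of uncertain label edgeR called 5 genes in TRAP and 0 in lysate, with either cohort alone or no cohort term 0 in each, and with the replicate block 3 in TRAP and 0 in lysate. Leaving out 1 library gave 3 to 10 genes in TRAP and 0 to 8 in lysate.

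The replicate block of run and home cage mice with the same number left P2ry13 in lysate at -0.72 (adjusted p = 0.426, edgeR) and called none of the 10 genes. Correlations of such pairs ran from -0.19 to 0.24 in TRAP and -0.63 to 0.18 in lysate. For TRAP and lysate libraries of the same mouse they ran from -0.44 to 0.34. Since the check also misses such known pairs, it cannot decide whether the numbers pair mice.

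Signs turned only for run effects, or differences of them, that were not called, and for Panx1 above; the cause was not tested. In TRAP, Panx1 went to -0.0095 with relative log expression factors, -0.0094 with DESeq2, -1.13e-04 without a filter, -0.10 without the 2 mice and -0.12 in cohort 1. P2ry12 went to -0.20 in cohort 2 and -0.039 with the replicate block, P2rx4 to -0.025 without the 2 mice, and Nt5e to 0.049 without the 2 mice and 0.11 with the block. In lysate, Nt5e went to -0.14 without the 2 mice, -0.23 in cohort 1, -0.051 without a cohort term and -0.0082 with the block. Panx1 went to -0.018 in cohort 1, P2rx7 to 0.078 and Entpd1 to 0.057 in cohort 2, and Adora3 to -0.23 in cohort 2 and -0.0056 without a cohort term. For the difference between fractions, Nt5e went to 0.26 without the 2 mice, 0.17 in cohort 1 and 0.040 with the block, Adora1 to 0.062 without the 2 mice and 0.058 in cohort 2, P2rx7 to -0.13 and Panx1 to 0.045 in cohort 2.

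Leaving out each library in turn, in TRAP P2ry12 ranged from -0.14 to 0.15, P2rx4 from -0.073 to 0.12, P2rx7 from -0.13 to 0.040, Nt5e from -0.38 to 0.10 and Panx1 from -0.072 to 0.053. In lysate Nt5e ranged from -0.059 to 0.17, Adora3 from -0.15 to 0.88, Panx1 from -0.031 to 0.096 and P2ry13 from -0.79 to -0.63. For the difference between fractions each mouse was left out with both its libraries. There P2rx7 ranged from -0.057 to 0.40, Nt5e from -0.46 to 0.058, Adora1 from -0.21 to 0.047 and Panx1 from -0.15 to 0.084.

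Low counts limit Nt5e in TRAP and Adora3 in lysate, whose run effects have 95% intervals of -1.71 to 1.49 and -1.53 to 2.11. With the longest transcript in place of all exons, levels per kilobase moved by over 1.5 times for P2rx4, Nt5e and Adora3.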
